A study of Mus musculus with 12 samples.

Results

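H3K27Ac, acetylation of lysine 27 on histone H3, marks active promoters and active enhancers. The regions described here are the H3K27Ac peaks of microglia whose centre lies in an exon, in a 3' UTR or at the end of a gene (the transcription termination site, TTS). The centre is also away from the nearest start in the authors' annotation. Members were the peaks annotated exon, TTS or 3' UTR by the authors that lay more than 1000 bp from the nearest transcription start site (TSS) and were under 10000 bp wide. There were 2284 of them among 55862 H3K27Ac peaks: 889 in exons, 754 at a TTS and 641 in a 3' UTR. Another 719 peaks with these annotations lay within 1000 bp of a TSS and were left out, as were 34 that were 10000 bp wide or wider. The smallest distance kept was 1002 bp and the largest left out was 998 bp, and the widest member was 9910 bp against 10046 bp for the narrowest peak left out.

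Microglia were sorted as CD11b+ CD45lo cells from the whole brain of 2-mo-old *Cx3cr1*+/+ (WT) mice and of *Cx3cr1* eGFP/eGFP (KO) mice, in which both copies of the fractalkine receptor gene are disrupted by eGFP in every cell. Both genotypes were C57BL/6J littermates from heterozygous crosses. Each ChIP-seq library came from a pool of 3 mice of 1 sex, with 1 female and 1 male pool per genotype for H3K27Ac and again for Rpb2, a subunit of RNA polymerase II, which leaves n = 2 pools of each genotype to compare. The question the comparison addresses is whether loss of the receptor changes the active chromatin of young adult microglia.

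The libraries were not alike. H3K27Ac libraries held from 10395804 to 21134403 reads. Peaks took 61.1% to 65.3% of them in 3 libraries but 15.9% in the WT female library. Where a pair of pool values is given for a genotype, the female pool comes first, so the WT female value can be told. The sex labels of the H3K27Ac libraries fit 4 peaks at Y-linked genes, where male pools held 281 (WT) and 656 (KO) reads and female pools held 0. In the Rpb2 library labelled WT female, 3 peaks at such genes held 136 reads against 0 in the KO female, so that library goes against its label. Of 10 microglial markers, 10 had an H3K27Ac peak nearest to them, and their summed peaks held 4799 to 7145 CPM (counts scaled to the same total of reads in peaks), against 17.4 to 62.5 for 6 neuronal and 0 to 26.2 for 4 neutrophil markers. Oligodendrocyte markers held 335 to 370 and astrocyte markers 383 to 510. Endothelial markers held 209 to 255, markers of monocytes and border macrophages 98.2 to 153 and lymphocyte markers 33.3 to 74.9. These sums are not divided by the number of genes or peaks. The WT female library had the lowest microglial, the highest neuronal and the only neutrophil value above 0. *Cx3cr1* itself lies under a peak 47717 bp wide that is annotated to its 3' UTR and was left out for its width. Its levels in CPM per kb were 22.5 and 35.6 (WT female, WT male) and 21.1 and 21.95 (KO female, KO male). A mark that spreads this far beyond the replaced sequence is no check of the genotype.

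Chromatin inside a gene body can carry H3K27Ac for different reasons. An exon can lie inside an enhancer, and a peak that begins at a promoter can run to the end of a short gene. PU.1 and C/EBP factors, with MAF, IRF and AP-1 partners, occupy many enhancers of macrophages and microglia, while a GC box bound by Sp factors is a hallmark of promoters. The sequences below show matches to such motifs in members with dense signal or in microglial genes, each read from the mm10 (GRCm38) reference on the strand given, 5' to 3', with the matched letters in capitals. The letters searched, on both strands, were GAGGAAGT for PU.1, TTGCNNAA for C/EBP, GAAANNGAA for IRF, CACGTG for the E-box, GGGCGG for the GC box, TGANTCA for AP-1 and TGCTGAC for a MAF half-site.
PU.1 match, exon of Ckb, chr12:111670936-111670965, plus strand: ggcttatcgaaGAGGAAGTggtcgtcaatg
PU.1 match, exon of Ptpn18, chr1:34472725-34472754, minus strand: ggcaacaagcaGAGGAAGTgaaagcgctta
PU.1 match, 3' UTR peak of Bad, chr19:6951390-6951419, minus strand: gctctttgggcGAGGAAGTcccttcaggga
C/EBP match, TTS peak of Olfml3, chr3:103734924-103734953, minus strand: ctgggtctgggTTGCACAAtccttggtctg
C/EBP match, exon of Inpp5d, chr1:87681509-87681538, plus strand: catcaccatggTTGCCAAActcagccaatt
IRF match, TTS peak nearest Slc11a1, chr1:74369445-74369474, plus strand: taaaaattaaGAAAAAGAAgggaaaagaag
IRF match, TTS peak of Mapkapk2, nearest Il10, chr1:131052551-131052580, plus strand: gctggactgaGAAAAGGAAgcaaaatacag
E-box match, exon of Bhlhe41, chr6:145863787-145863816, plus strand: acatctgctcatCACGTGggccctgcgctg
E-box match, TTS peak of Nfkbia, chr12:55489281-55489310, plus strand: aagctcggctctCACGTGagaagctactct
The *Ckb* match lay 1 bp from the centre of its peak, the *Olfml3* match 7 bp and the *Slc11a1* match 14 bp, while that of *Inpp5d* lay 213 bp away.

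PU.1 matches differed with the list a peak came from. The authors called peaks in each genotype and merged the lists, so a member came from both lists or from 1. A PU.1 match stood in the central 500 bp of 11.7% of the members found in both lists (80 of 684, exact 95% binomial interval 9.38% to 14.3%), of 7.21% of those in the KO list alone (59 of 818) and of 3.33% of those in the WT list alone (26 of 781, interval 2.19% to 4.84%). Peaks in introns with the same limits on distance and width held it in 10.96%, 7.30% and 3.89%, and intergenic peaks in 11.7%, 8.24% and 3.73%, so members were close to both. Over all 55844 H3K27Ac peaks with sequence the share was 6.61%, and 8.64% over those of both lists. Among members of both lists, exons held a PU.1 match in 14.6% (38 of 260, interval 10.5% to 19.5%) and TTS peaks in 8.73% (20 of 229, interval 5.42% to 13.2%), and these intervals overlap. Intervals here and below cover counting error only.

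In the central 500 bp, members differed from other distal peaks in the AP-1 and IRF motifs and the GC box. Among peaks of both lists, AP-1 matches stood in 10.5% of members (interval 8.33% to 13.1%) against 14.9% of intronic (14.1% to 15.7%) and 16.4% of intergenic peaks (15.4% to 17.5%), with no overlap between the intervals. IRF matches stood in 14.5% of members (11.9% to 17.3%) against 18.5% of intronic (17.6% to 19.4%) and 19.5% of intergenic peaks (18.4% to 20.6%), again with no overlap. In the central 300 bp of the same peaks, AP-1 stood in 6.73% of members (4.97% to 8.87%). The shares were 9.50% of intronic (8.82% to 10.2%) and 10.3% of intergenic peaks (9.50% to 11.2%), so members overlapped the intronic interval alone. IRF stood there in 9.50% (7.41% to 11.952%) against 11.7% (10.97% to 12.5%) and 12.9% (11.951% to 13.8%), so members overlapped both. The GC box stood in 21.2% of members (18.2% to 24.5%), 10.96% of intronic and 14.4% of intergenic peaks, and in 28.8% of exon members. Over all peaks of both lists, promoters included, the shares were 12.1% for AP-1, 15.8% for IRF and 33.9% for the GC box. Base composition differed too. In peaks of both lists, the mean GC content of the central 500 bp was 51.7% in members, 47.4% in introns and 48.0% between genes. Over peaks of any list it was 50.2% in members (53.3% in exons, 48.2% at a TTS and 48.3% in a 3' UTR), 46.0% in introns and 45.8% between genes. The part of base composition in the motif shares was not tested.

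**Figure D1:**
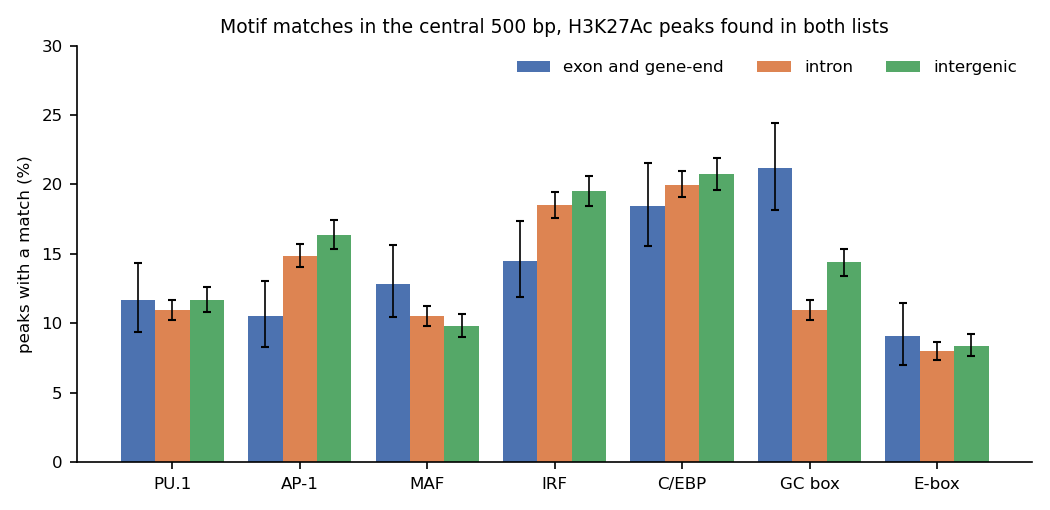
Share of H3K27Ac peaks found in both lists (y axis, %) with at least 1 match to each motif in the central 500 bp, for exon and gene-end, intronic and intergenic peaks. Bars are shares and error bars are exact 95% binomial intervals. Exon and gene-end peaks are lowest for AP-1 at 10.5% and highest for the GC box at 21.2%.

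The poly(A) signal AATAAA, which directs cleavage of a transcript, was searched on each strand of the gene. In TTS members it stood on the strand of the gene in 30.6% (223 of 728) and on the other strand in 24.7% (180 of 728). In exons it was rarer, in 9.73% on the strand of the gene and 13.8% on the other. Over 3' UTR members the shares were 23.3% and 24.4%. The 500-bp window is wider than the last bases of a transcript, so a match names no cleavage site.

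Members sat in 2023 different annotated genes, and 1802 of these held 1 member. *Akap13*, *Itsn1*, *Soga1* and *Vash1* held 4 each, the most of any gene. Of the 2276 members whose annotated gene could be named, 51.3% had that gene as the nearest by TSS, and in the others a different gene's start was closer (60.0% in exons, 49.2% at a TTS and 41.7% in a 3' UTR had the same gene). Both genes are therefore given for a member where they differ. The nearest gene was protein-coding for 2017 members and a non-coding RNA gene for 249. Exon members were coding sequence: the centre of 884 of 889 lay in an annotated coding exon, with 663 in an internal exon, 210 in the last and 33 in the first (17 lay in the only exon). Every one of the 641 members in a 3' UTR lay in the last exon of its transcript. Over members whose gene had annotated starts, 73.1% had another H3K27Ac peak within 1000 bp of a start of that gene, and 62.2% had an Rpb2 peak there.

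An annotated start lay inside the interval of 129 members, or 5.65% (interval 4.74% to 6.67%). This was 15.9% of members in both lists (109 of 684), 1.59% of those in the KO list and 0.90% of those in the WT list. Intronic peaks held a start in 4.40% and intergenic peaks in 4.37%, against 93.3% of promoter peaks. The distance rule is counted from the centre of a peak, so a wide peak that runs from a promoter into the gene passes it. The rule also used the distance in the authors' annotation, whereas starts inside intervals came from GENCODE. A member far from the nearest TSS of that annotation can therefore hold a start. The *Ptpn18* member, 2981 bp wide and 13036 bp from that TSS, held 3. How many of the 129 fall under either case was not tested. The annotated end of a protein-coding gene lay inside 27.8% of members and inside 0.98% of intronic peaks, which the rule itself sets apart.

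Width and depth differed between the lists. Of all members 684 (29.9%) were found in both lists, 818 (35.8%) in the KO list alone and 782 (34.2%) in the WT list alone, much as for intronic peaks (30.4%, 34.5% and 35.1%) and unlike promoter peaks, of which 79.1% were in both. Members of both lists had a median width of 2132 bp, and members of either list alone had a median of 501 bp, the narrowest width of any member, which 691 of the 782 in the WT list and 432 of the 818 in the KO list had. The median member of both lists held 66 (WT female), 118 (WT male), 244 (KO female) and 232.5 (KO male) reads, and 632 of the 684 had at least 10 reads in every library. In the KO list the medians were 9, 7, 32 and 34.5 reads.

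Members of the WT list were largely reads of 1 library. The median such member held 21 reads of the WT female library, while the median was 0 for each of the other 3. Of the 782, 248 (31.7%) had no read outside the WT female library, and 92 had at least 10 reads in both WT pools, whereas 535 of the 818 in the KO list had at least 10 reads in both KO pools. The WT female library is also the one with 15.9% of its reads in peaks. The reads of each pool are therefore given beside the genotype values of members of this list.

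**Figure D2:**
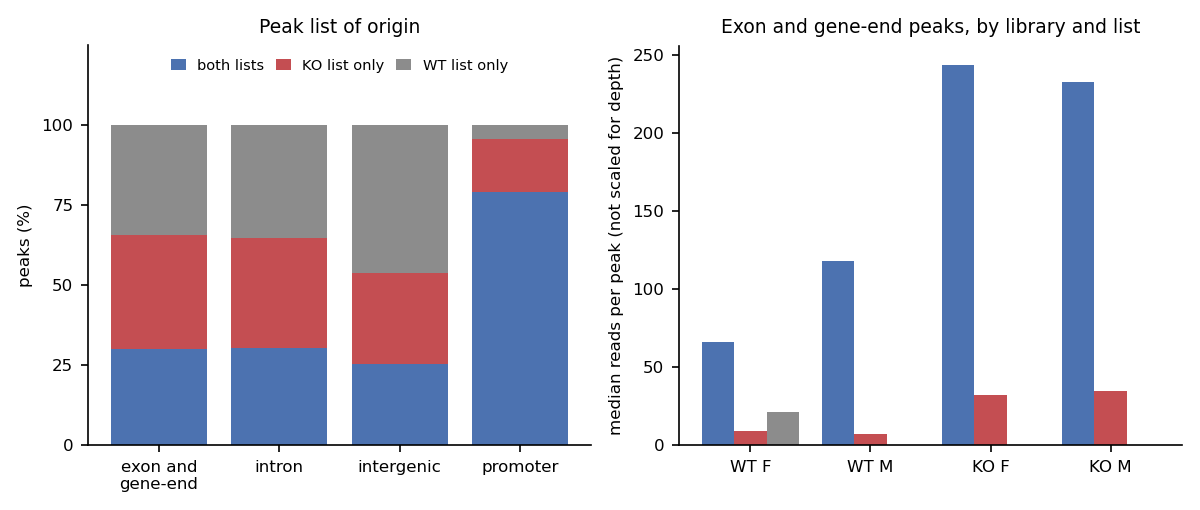
Left, share of H3K27Ac peaks (y axis, %) found in both lists, the KO list alone or the WT list alone, by annotation class, and right, median reads per exon or gene-end peak (y axis, not scaled for depth) in each library by list. Peaks of the WT list have a median of 21 reads for the WT female pool and 0 for the other 3, so those bars have no height.

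The densest members were alike in list and in polymerase. Levels are CPM from edgeR, scaled by TMM, per kb of peak. The 5 densest members of each kind had means over the 4 libraries from 24.7 to 31.7, all 15 were in both lists, all 15 overlapped an Rpb2 peak, and 11 held an annotated start. In exons these were *Tmem86a* (a lysoplasmalogenase), *Kcnk13* (a potassium channel of microglia), *Map3k11* (a kinase upstream of JNK), *Ckb* (brain creatine kinase) and *Ptpn18* (a tyrosine phosphatase). At a TTS they were *2700012I20Rik*, *Rcn3*, *Cebpd* (a C/EBP factor; the annotated gene is *Spidr*), *Olfml3* (a secreted protein typical of microglia) and *Stab1* (a scavenger receptor; annotated gene *Nisch*). In a 3' UTR they were *Bad* (a death-promoting BCL2 relative), *Fam53b*, *Ier5* (an immediate-early gene), *Arl4c* and *Mir5130* (annotated gene *Kctd12*).

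The member at *Tmem86a* (chr7:47049889-47057356) held 27.5 and 32.3 CPM per kb in WT female and male pools and 30.8 and 31.0 in KO pools. *Bad* (chr19:6950150-6952960), whose interval holds no annotated start, held 30.05 and 26.9 in WT pools and 32.6 and 37.2 in KO pools. *Olfml3* (chr3:103730491-103739393) held 20.3 and 31.5 in WT and 28.5 and 28.6 in KO pools. The genotypes overlapped at 10 of the 15, KO pools were both higher at 4 (14.3% of all H3K27Ac peaks) and both lower at 1 (13% of all peaks), *Ptpn18* (28.5 and 29.9 against 24.96 and 24.89), and the lowest adjusted p of edgeR's quasi-likelihood test was 0.88. Fitted log2 fold changes of the 15, KO against WT, ran from -0.23 to 0.31.

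**Figure D3:**
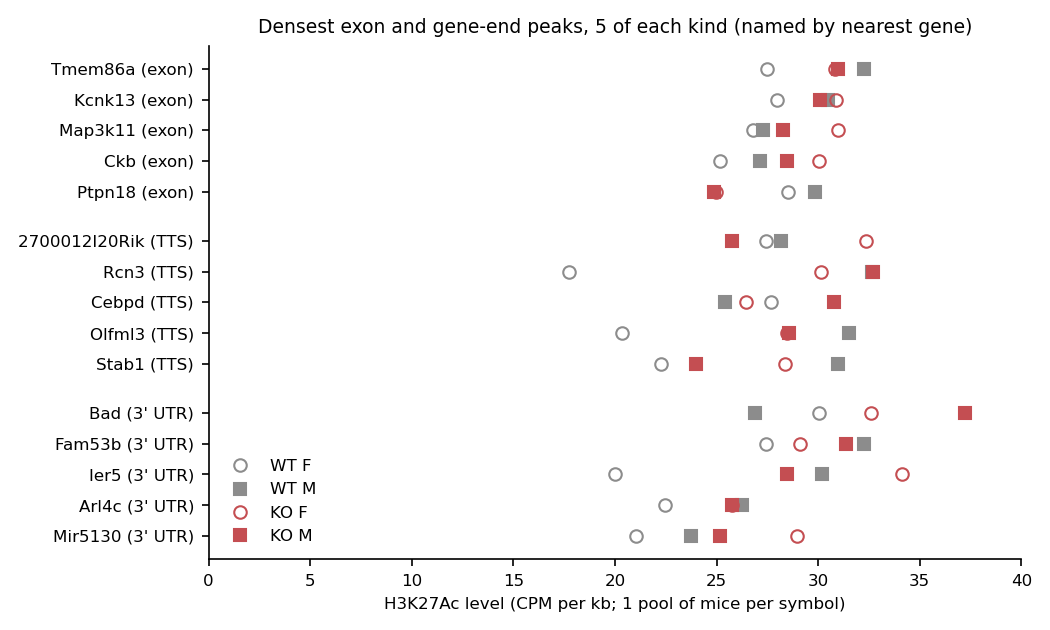
H3K27Ac level (x axis, CPM per kb) at the 5 densest peaks of each kind (y axis, nearest gene and kind), with 1 symbol per pool: circles are female, squares are male, grey is WT and red is KO. Most levels lie between 20 and 35, and the WT female pool is the lowest of the 4 at Rcn3 with 17.8.

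Genes that define microglia had members among them. Of 38 homeostatic microglial genes 8 were nearest to a member, 12 members in all, of which 4 were in both lists. *Golm1*, a Golgi membrane protein, had a TTS member at chr13:59631308-59636725 with levels of 13.7 and 19.1 in WT and 16.4 and 19.2 in KO pools. *Selplg*, the P-selectin ligand, had a 3' UTR member at chr5:113813936-113822769 with 8.83 and 7.98 against 7.21 and 8.07. The pools of the genotypes overlapped at both. The *Selplg* interval holds an annotated start, and that of *Golm1* holds none. None of the 12 had an unadjusted p under 0.05 (edgeR), a value that 1.35% of all peaks reached with higher and 3.6% with lower levels in KO.

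Of the 10 members near myeloid transcription factors, 8 were in both lists and 9 overlapped an Rpb2 peak. They lay near *Bhlhe41*, *Cebpa*, *Irf4*, *Irf5*, *Irf8*, *Nfkbia*, *Rela*, *Tal1* and *Tfeb*. The 3 described here are wide and hold annotated starts in their intervals, 3 at *Bhlhe41*, 3 at *Cebpa* and 1 at *Nfkbia*. Their levels therefore cover starts as well as the exon or gene end they are annotated to. *Bhlhe41*, a repressor that binds E-boxes, had a member over its last exon (chr6:145859797-145867517) with levels of 19.8 and 26.1 in WT and 24.7 and 22.5 in KO pools, and this member held the CACGTG match printed above. *Cebpa*, a single-exon gene, held 16.7 and 14.7 in WT and 16.0 and 19.2 in KO pools (chr7:35116012-35125822). *Nfkbia*, the inhibitor of NF-kappa-B, held 13.2 and 16.5 in WT and 17.5 and 20.2 in KO pools (chr12:55485360-55493419), with both KO pools above both WT pools (log2 fold change 0.35 ± 0.30 SE, edgeR adjusted p = 0.85).

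Members of other lists included *Ifngr2*, a chain of the interferon-gamma receptor, which held 7.78 and 11.3 in WT and 13.7 and 12.6 in KO pools over its exon 6 (log2 fold change 0.46 ± 0.29, edgeR adjusted p = 0.81). *Fcgr3*, an Fc receptor, held 4.11 and 12.4 against 5.98 and 9.02 at its TTS. *Ier5* was the densest member of the 30 immediate-early and AP-1 genes, 7 of which had a member, with 20.0 and 30.2 in WT and 34.1 and 28.5 in KO pools.

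Other lists had few members and no call in edgeR, which called 0.0233% of all peaks. Lysosomal genes had 14 members (4 in both lists), complement genes 7, interferon response genes 7, cytosolic ribosomal protein genes 7, actin and adhesion genes 8, chemokine and cytokine genes 6, Fc receptor and *Trem2* signalling genes 5, lipid and disease-associated microglial genes 5, and antigen presentation 1 (*H2-Eb1*, an MHC class II chain, with 15.0 and 10.3 in WT and 7.29 and 7.84 in KO pools, edgeR adjusted p = 0.81). Members with an unadjusted p under 0.05 in these lists were nearest to *Itgax*, *Npc2* and *Rhoc*, all with lower fitted levels in KO. *Npc2*, a cholesterol carrier of the lysosome, is in the WT list, and the reads at its TTS numbered 22 and 64 for WT pools against 9 and 7 for KO. *Rhoc*, a small GTPase, was in both lists and held 10.1 and 12.2 in WT and 6.07 and 7.26 in KO pools at its TTS. The *Itgax* member is the last exon of *Itgam*, which encodes the CD11b used for the sort. Its WT pools had 8 and 77 reads against 1 and 4 for KO, so most of its reads came from the WT male pool. It too is in the WT list alone, so it and the *Npc2* member were called only in the genotype where they are high. The marker lists of other brain and blood cells hold 4 to 6 genes each, so their counts are small. By nearest gene there was 1 member for oligodendrocytes (*Mag*, 1 of 5 genes) and 1 for endothelium (*Flt1*, 1 of 4 genes). There was none for neurons, astrocytes, neutrophils, lymphocytes, or monocytes and border macrophages, though neurons had 1 by annotated gene.

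Between KO and WT pools no member passed the threshold. edgeR's quasi-likelihood test over all 55798 H3K27Ac peaks that could be tested called 13, which is 0.0233% of them, and called 0 of the 2282 members tested at an adjusted p under 0.05. An unadjusted p under 0.05 was reached by 21 members with higher and 103 with lower values in KO, or 0.92% and 4.51%, against 1.35% and 3.6% of all peaks. The WT list alone supplied 75 of the 103 lower members, and the KO list alone 10 of the 21 higher ones. DESeq2 called 12 members (0.43% of all peaks) and limma called 0 (0.0125% of all peaks). Among the 12, only an exon peak of *Syngr3* was in both lists (log2 fold change -3.47, DESeq2 adjusted p = 0.014). The others entered through the list of the genotype where they are high, so those DESeq2 calls only describe that choice. With only the peaks of both lists in the fit, edgeR called 0 members and 0% of all those peaks. Leaving out the WT female library gave 39 called members of 1935 tested, with 1.53% of all peaks called, and leaving out the WT male library gave 267 of 2241, with 14.8% of all peaks called. Leaving out either KO library gave 0. In a bulk sample, fewer cells carrying a mark and less of it per cell cannot be told apart. In the fits without 1 WT library the lone WT pool is assumed to vary like the KO pools. With 2 pools a side, an exact permutation test of 1 member cannot go below p = 0.3333.

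KO pools lay both above the WT pools at 327 members (14.3% of those tested, against 14.3% over all peaks) and both below at 376 (16.5%, against 13% over all peaks). This count too followed the lists: of the 376, 206 were in the WT list alone, 41 in the KO list alone and 129 in both. The median fitted log2 fold change of members in both lists was -0.03, and 0.04 over all 21033 peaks of both lists. Scaling by the total reads of each library moved the median of all peaks, of any list, by 0.74. It turned the median of members of both lists to 0.63 and that of all peaks of both lists to 0.71. Within both lists 11 members had an unadjusted p under 0.05 with higher and 28 with lower values in KO (1.61% and 4.09% of 684), whereas over all peaks of both lists higher values were the more frequent (562 and 346, or 2.67% and 1.65%). That contrast did not hold with loess offsets, where the counts were 6 and 36 for members and 356 and 591 over all. Without the WT female library these counts were 46 and 66 for members and 1630 and 1549 over all. With total reads they were 1 and 0 for members.

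The lowest p among members belonged to a 3' UTR peak on chromosome 9. It covers the last exon of *Sacm1l*, a phosphoinositide phosphatase (chr9:123591113-123593311, nearest gene *Slc6a20b*), and came from the KO list, so it was called as a peak only in the genotype where it is high, and its values are a description. Read counts were 11 and 33 for the female and male WT pools and 220 and 255 for the KO pools. Both KO pools were above both WT pools, at 8.46 ± 1.21 (SD, n = 2) against 1.91 ± 0.70 CPM per kb, a log2 fold change of 2.12 ± 0.56 (SE, edgeR adjusted p = 0.42, DESeq2 adjusted p = 0.011). The fold change was 1.81 without the WT female library and 2.58 without the WT male, and edgeR's adjusted p was then 0.049 and 0.0019. The peak lies 3.54 Mb from *Cx3cr1*.

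Of the 26 members within 10 Mb of *Cx3cr1*, this was the only one with an unadjusted p under 0.05. KO pools were both higher at 6 of the 26 (14.3% of all H3K27Ac peaks) and both lower at 4 (13% of all peaks), and 13 of them were in the WT list alone. The next lowest p belonged to *Klhl40* (annotated gene *Zfp651*) and *Golga4*, each with reads in the WT female pool alone, 27 and 26.

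*Pdp2*, a phosphatase subunit that activates pyruvate dehydrogenase, had a 3' UTR member, also called in the KO list alone (chr8:104595095-104596821) whose reads numbered 6 and 15 (WT) and 106 and 204 (KO) (log2 fold change 2.55 ± 0.85, edgeR adjusted p = 0.77). *Slc11a1*, the metal transporter of the phagosome also called Nramp1, was nearest to a TTS member of both lists (chr1:74367161-74371777). Its WT pools had 193 and 720 reads and its KO pools 1908 and 2027, at levels of 11.8 and 24.9 against 31.4 and 35.25. Its log2 fold change of 0.85 ± 0.30 (edgeR adjusted p = 0.79) became 0.41 without the WT female library, which was the lowest of the 4. Without the WT male library edgeR's adjusted p was 0.016 at *Pdp2* and 2.4e-14 at *Slc11a1*, and without the WT female it was 0.062 and 0.15.

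Further members with higher values in KO were the 3' UTR of *Usp2*, a deubiquitinase (nearest gene *Mfrp*, 6.00 and 5.98 against 9.47 and 13.9), the TTS of *Trim46* (nearest gene *Muc1*, in the KO list alone, 9.34 and 4.63 against 12.1 and 16.9) and the TTS of *F11r*, the junctional adhesion molecule JAM-A (4.71 and 6.81 against 10.9 and 8.67). Their log2 fold changes were 0.96 ± 0.34, 1.08 ± 0.41 and 0.76 ± 0.30, and the lowest edgeR adjusted p was 0.80. Without the WT female library *F11r* moved to 0.52 and *Trim46* to 1.64 (edgeR adjusted p = 0.027). Without the WT male library edgeR's adjusted p was 0.031 at *Usp2*, 0.0010 at *F11r* and 0.30 at *Trim46*, and without the WT female it was 0.11 at *Usp2* and 0.28 at *F11r*. Scaled by total reads the fold changes were 1.66, 2.05 and 1.33.

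Members of both lists with lower values in KO and the lowest p lay in exon 14 of *Pkp4*, a plakophilin of cell junctions (nearest gene *5330411J11Rik*), in exon 61 of *Utp20*, a factor of ribosome assembly (nearest gene *Arl1*), and in the 3' UTR of *Phc3*, a polycomb protein (nearest gene *Gpr160*). The *Pkp4* member (chr2:59337907-59339893) held 17.8 and 12.1 in WT and 7.99 and 5.54 in KO pools (log2 fold change -1.13 ± 0.38, edgeR adjusted p = 0.77). *Utp20* held 15.2 and 6.496 against 3.595 and 3.584, and *Phc3* 8.42 and 13.4 against 6.26 and 3.85. The *Utp20* fold change, -1.58 with all 4 libraries, was -0.86 without the WT female library. That fit called *Phc3* (edgeR adjusted p = 0.028), and the fit without the WT male called *Pkp4* (edgeR adjusted p = 0.0046) and *Utp20* (edgeR adjusted p = 0.0036). In the opposite fits edgeR's adjusted p was 0.31 at *Phc3*, 0.34 at *Pkp4* and 0.63 at *Utp20*. Scaled by total reads the fold changes were -0.27 at *Pkp4*, -0.53 at *Utp20* and -0.58 at *Phc3*.

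The lowest p values of all in that direction came from members of the WT list, which were called as peaks in WT alone. Their entry therefore rests on the genotype in which they are high, and their values describe that choice and are no independent sign of a difference. *Ttll8*, a tubulin glycylase, had 35 and 31 reads in WT pools over its exon 6 and 0 in both KO pools (edgeR adjusted p = 0.56, DESeq2 adjusted p = 0.0030). The TTS of *Clec4g*, a C-type lectin, had 41 and 19 reads against 0 and 0 (edgeR adjusted p = 0.56). With KO set to a floor of 3 reads per library, CPM was 31.7-fold lower at *Ttll8* and 31.2-fold lower at *Clec4g*. These folds depend on scaling to reads in peaks, so they are no lower bound. With total reads the fitted log2 fold changes moved from -9.04 to -8.40 at *Ttll8* and from -9.01 to -8.10 at *Clec4g*. *Sbno2*, a co-repressor induced by IL-10, had 21 and 60 against 2 and 0 (edgeR adjusted p = 0.72). *Fndc1* and *Trim27* had 50 and 49 reads in the WT female pool and none in the other 3 libraries. Without the WT male library edgeR's adjusted p was 0.0045 at *Ttll8*, 0.00050 at *Clec4g*, 6.3e-06 at *Fndc1* and 1.1e-05 at *Trim27*, against 0.17 at *Sbno2*. Without the WT female it was 0.11 at *Ttll8*, 0.39 at *Clec4g* and 0.0043 at *Sbno2*, while *Fndc1* and *Trim27* had no reads left to test.

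**Figure D4:**
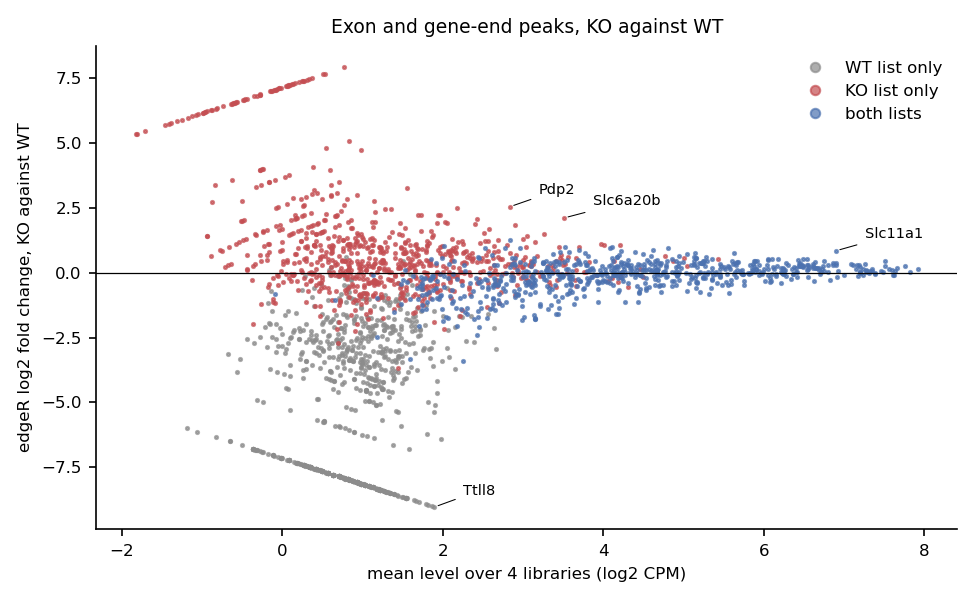
edgeR log2 fold change, KO against WT (y axis), by mean level over the 4 libraries (x axis, log2 CPM) for the 2282 members tested, coloured by list, 1 point per peak. Peaks of both lists (blue) have a median of -0.03, and the 2 straight arms hold peaks with no read in either pool of 1 genotype, whose fitted values depend on the prior count.

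Of the reads in all peaks, members took 3.04% and 2.82% in WT (female, male) and 2.77% and 2.78% in KO. The means were 2.93% ± 0.16 (SD, n = 2) in WT and 2.78% ± 0.0032 in KO, a difference of -0.15 percentage points (exact permutation test, two-sided, p = 0.3333, the smallest it can give). The KO pools were the lower pair. The members of both lists alone took 2.28% and 2.51% in WT and 2.45% and 2.44% in KO pools, which overlapped. Those of the WT list took 0.46% of the WT female library and 0.11% of the WT male, against 0.025% and 0.032% in KO. By list, KO minus WT was -0.26 percentage points in the WT list, 0.043 in both lists and 0.061 in the KO list. The lower KO share thus came from members called as peaks in WT alone.

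Rpb2 sat in these peaks more often than in other distal ones. An Rpb2 peak overlapped 537 members, 23.5% (interval 21.8% to 25.3%), against 12.6% of intronic (12.2% to 13.1%) and 10.1% of intergenic peaks (9.68% to 10.5%), 73.1% of promoter peaks and 23.4% of all. The share was 52.2% among members of both lists (48.4% to 56.0%), and 35.0% among both intronic and intergenic peaks of both lists. At a TTS it was 58.1%, in a 3' UTR 50.3% and in exons 48.5%. In the KO list it was 16.4% and in the WT list 5.88%.

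Members had the higher share at each width. Among peaks of both lists up to 1000 bp wide the share was 16.7% in members (interval 9.64% to 26.0%), 6.75% in introns and 5.44% between genes. From 1001 to 2000 bp it was 35.9%, 13.4% and 17.9%, from 2001 to 4000 bp 58.2%, 36.2% and 42.3%, and from 4001 bp upward 89.7% (83.6% to 94.1%), 74.2% and 71.4%. In each of the 4 width classes the interval of members lay above the other two shares. The H3K27Ac level was set against the Rpb2 reads per kb across the 357 members of both lists with an Rpb2 peak. All reads of each overlapping Rpb2 peak were counted, over the width of the member. Spearman rho was 0.19 across peaks, which share libraries and are not independent.

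**Figure D5:**
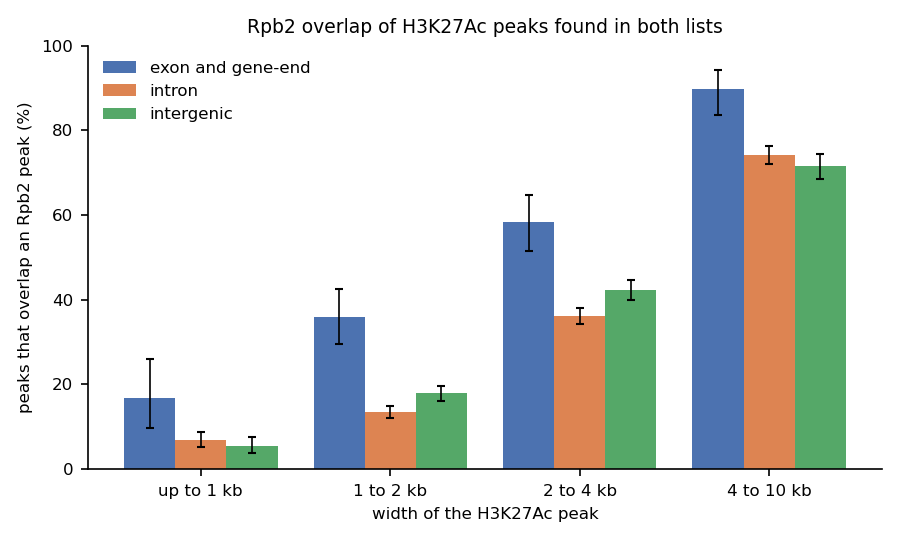
Share of H3K27Ac peaks of both lists that overlap an Rpb2 peak by at least 1 bp (y axis, %), by width of the H3K27Ac peak (x axis), for exon and gene-end, intronic and intergenic peaks, with exact 95% binomial intervals as error bars. Exon and gene-end peaks are highest in each width class, from 16.7% to 89.7%.

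The 836 Rpb2 peaks that overlapped a member, called inside members here, lay mostly where the members do. Of them 229 were at a TTS, 194 in a 3' UTR and 121 in an exon, with 62 at a promoter. Only 241 (28.8%) were in both Rpb2 lists, against 33.3% of all 26706 Rpb2 peaks. *Rin3* (nearest gene *Lgmn*), *Lysmd4* and *Serinc3* (nearest gene *Ttpal*) had the most Rpb2 reads per kb of member, 264, 238 and 227 CPM per kb. This value counts all reads of each overlapping Rpb2 peak, also those outside the member, over the width of the member. All 3 were narrow H3K27Ac peaks of 501 bp in 1 list alone, and a small width raises the value. *Lysmd4*, of the WT list, had H3K27Ac reads of 3 and 52 for WT pools against 24 and 22 for KO.

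Between genotypes edgeR called 0 of these 836 Rpb2 peaks and 2 of all Rpb2 peaks, which is 0.00749%. Higher values in KO with an unadjusted p under 0.05 were found at 42 (5.02%, against 6.12% over all Rpb2 peaks) and lower values at 48 (5.74%, against 6.06%). DESeq2 called 24 (3.83% of all Rpb2 peaks) and limma 3 (0.352%). Without the library labelled WT female 69 were called (8.28% of all) and without the WT male 41 (7.35%), again with a lone WT pool.

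Rpb2 peaks with the lowest p were chosen after their values were seen. They lay in members at *Selplg*, *Cebpa*, *Kctd12* and *Golm1*, and also at *Prrc2c*, *Alkbh4*, *Msh6*, *Psmc5*, *Hpn* and *Chadl*. Those at *Cebpa* and *Kctd12* were in both Rpb2 lists. The *Selplg* peak came from the WT list alone and the *Golm1* peak from the KO list alone. Each of these was called only in the genotype where it is high, so its values are a description. An intronic peak in the *Selplg* member held 330 and 298 CPM per kb of Rpb2 in WT and 113 and 85.1 in KO pools (log2 fold change -1.66 ± 0.38, edgeR adjusted p = 0.20, DESeq2 adjusted p = 0.00069, limma adjusted p = 0.043). At *Cebpa* a peak of the gene's start inside the member held 1077 and 1477 against 650 and 700 (-0.92 ± 0.22, edgeR adjusted p = 0.20), and *Kctd12* held 1294 and 1347 against 724 and 912. In the other direction an intronic peak of *Golm1* had 2 reads in each WT pool against 139 and 47 for KO (3.89 ± 0.90, edgeR adjusted p = 0.20). Without the library labelled WT female the fold change was -1.59 at *Selplg*, -1.15 at *Cebpa* and 4.003 at *Golm1*, with edgeR adjusted p of 0.034, 0.0023 and 0.0069. Without the WT male it was -1.72, -0.67 and 3.79, with edgeR adjusted p of 0.020, 0.11 and 0.012, so the call at *Cebpa* rests on the pool left out. Scaled by total reads the *Cebpa* value was -0.58. The H3K27Ac members around these Rpb2 peaks had log2 fold changes of -0.14 at *Selplg*, 0.17 at *Cebpa* and 0.11 at *Golm1*, with overlapping pools at all 3. The member at *Kctd12* had 0.27 ± 0.31 (SE, edgeR adjusted p = 0.93). Both KO pools lay above both WT pools there, as at 14.3% of all H3K27Ac peaks, while its Rpb2 peak was lower in KO.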

How the data were processed

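Per the labels and the study's methods, 51-nt single-end reads were mapped to mm10 with Bowtie2 and unique reads kept, peaks were called with HOMER and filtered by reproducibility between pools, and the WT and KO lists were merged. The authors deposited raw read counts per library for every merged peak, not normalized, and the annotation used here (0 columns of per-sample values were left unused). Inputs were not analysed here.

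The counts were tested as deposited with edgeR 4.0.16 (quasi-likelihood, TMM, genotype alone, peaks whose mean reached 4 reads in WT or KO, Benjamini-Hochberg adjustment) in R 4.3.3. DESeq2 1.42.0 and limma 3.58.1 were alternatives, and the steps were tested on simulated data. Overlap meant at least 1 bp. Rpb2 reads per kb of a member counted all reads of each overlapping Rpb2 peak, divided by the width of the member. Starts and ends came from GENCODE vM21 (basic), apart from the distance to the nearest TSS, which was that of the authors' annotation. Sequence came from GRCm38. Same-numbered pools were different mice, so sex was not a block. Totals ran from 10395804 to 44332626 reads. Pools are few, so p-values measure the spread between 2 pools a genotype.

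The members, the gene lists and the named-member rule were chosen with earlier results of these data known. Named members were the 5 densest of each kind, the 5 lowest p in each direction, the 3 lowest p in each direction among members of both lists whose pools do not overlap, up to 3 per gene list by level, the 3 lowest p within 10 Mb of *Cx3cr1*, and the 3 with most Rpb2 reads per kb. Not every one is described. Python 3.11.15, NumPy 2.4.6, SciPy 1.17.1 and pandas 2.3.3 were used.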

Additional observations from a re-analysis of the deposited data

How the results depend on the processing

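No H3K27Ac member was called with size factors by median ratio, total reads, loess offsets, limma, no filter, at least 10 reads in every library, sex as a replicate block, or the peaks of both lists. DESeq2 called 12, and leaving out 1 library gave 0 to 267. Members with an unadjusted p under 0.05, 21 higher and 103 lower in KO, numbered 32 and 36 with total reads, 33 higher with loess offsets, 38 and 306 with DESeq2, 8 higher with limma, 11 and 52 with at least 10 reads in every library, and 8 and 27 with the peaks of both lists. With the replicate block 23 were higher and 68 lower. Leaving out 1 library gave 3 to 122 higher and 21 to 414 lower. The cause of these shifts was not tested.

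For Rpb2 peaks inside members, 0 called became 24 with DESeq2, 3 with limma and 0 to 69 with 1 library left out, and stayed at 0 with the replicate block. The 42 higher and 48 lower peaks numbered 95 and 14 with total reads, 24 higher with loess offsets, 79 lower with limma, 13 and 8 with the peaks of both lists, 30 and 44 with the replicate block, and 12 to 108 higher and 25 to 65 lower with 1 library left out.

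The difference in the share of peak reads, -0.15 percentage points, reversed to 0.65 over total reads and to 0.043 with the members of both lists. It was -0.27 in pools labelled F and -0.038 in pools labelled M, taking sex as a replicate block, and -0.26 to -0.040 with 1 library left out. The numbers name only the sex of a pool: deviations of same-sex pools had a correlation of -0.00027 for H3K27Ac and -0.0076 for Rpb2.

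The share with an Rpb2 peak, 23.5%, was 21.1% when the centre of the Rpb2 peak had to lie inside and 7.97% with Rpb2 peaks of both lists. The share with a start, 5.65%, was 3.59% for protein-coding starts and 15.9% in both lists. In a 300-bp window the motif shares were 5.08% for PU.1, 6.18% for AP-1, 7.93% for MAF, 9.77% for IRF, 10.3% for C/EBP, 10.9% for the GC box and 5.39% for the E-box. With the 500-bp window kept, members of both lists held 11.7% for PU.1 and 21.2% for the GC box.

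All 186 recomputed fold changes of 16 named members, and all 116 of the 10 Rpb2 peaks, kept their direction though not their size. These members and Rpb2 peaks were picked for the lowest p in the same libraries, so a kept direction is no independent check. Members with no read in either KO pool could not have reversed. Counts for the members of both lists without the WT female library, or with total reads, were added after seeing the data. Of 255 recomputed levels of 51 other named members, 39 moved by more than 1 SD over the libraries, all 39 with total reads. Depth limits the members of 1 list, most of which hold fewer than 40 reads in each library.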
